A study of Homo sapiens with 4 samples.

Results

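The interferon regulatory factor (IRF) family was examined in MV4-11 cells upon knockdown of CEBPG. Its members are the genes IRF1, IRF2, IRF3, IRF4, IRF5, IRF7, IRF8 and IRF9, chosen by symbol and not by any measured value. They are 8 of the 16490 genes of the table and take 20 of its 28780 RefSeq rows, of which 19 hold values. MV4-11 is a human acute myeloid leukemia (AML) cell line of the myelomonocytic type with an MLL fusion and an internal tandem duplication in FLT3. The controls were 2 libraries of cells with the hairpin sh-NC (treatment label: CEBPG presence) and 2 libraries of cells carrying sh-CEBPG#3 (CEBPG knockdown). The hairpins were delivered by pLKO.1-puro lentivirus and infected cells were selected with puromycin, so the knockdown group rests on a single hairpin in infected, selected cells. Separate infections or cultures are not stated for the 2 libraries in each group in the sources used here, and all p-values therefore measure only the spread between these libraries, which may be technical.

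IRFs are transcription factors that share an N-terminal DNA-binding domain with conserved tryptophans and bind GAAA repeats such as the interferon-stimulated response element (ISRE). IRF3, IRF5 and IRF7 wait in the cytoplasm and are activated by kinases downstream of nucleic acid sensors. IRF9 is the DNA-binding subunit of ISGF3, in which it is bound to STAT2 after interferon binds its receptor. IRF1 and IRF2 act on shared sites as activator and antagonist. IRF4 and IRF8 need partners such as PU.1 (SPI1), and IRF8 is known for directing myeloid precursors toward monocytes and dendritic cells.

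Values are FPKM, the sequenced fragments of a transcript divided by its length and by the size of the library, so genes can be compared with each other. Their totals ran from 364353 to 389766 per library, and the read depth behind them is unknown. CEBPG, against which the hairpin is directed, was at 30.4 and 33.6 FPKM in sh-NC cells and at 19.2 and 17.1 FPKM in sh-CEBPG#3 cells, a mean level of 56.8% of the controls. Of 10 myeloid markers, 9 had a mean of at least 0.5 FPKM, and CD14 lay below it. No erythroid marker and only 1 of 6 T cell markers has a row, and it (CD247) stayed at or below 0.18 FPKM. The summed myeloid markers were 1129 and 1225 FPKM in sh-NC cells and 3767 and 3594 FPKM in sh-CEBPG#3 cells, a gap mostly through LYZ, the gene of lysozyme. CEBPA went the other way, from 254 and 273 FPKM to 216 and 213 FPKM. FLT3 was also lower in both sh-CEBPG#3 libraries, and the other myeloid markers were higher in both. The summed B cell markers lay between 2.83 and 3.24 FPKM over all 4 libraries. The summed dendritic markers were 15.2 and 16.8 FPKM in sh-NC cells and 20.8 and 17.7 FPKM in sh-CEBPG#3 cells, nearly all from IL3RA. The summed epithelial markers, KRT8 and KRT18 alone, were 12.1 and 12.9 FPKM against 16.0 and 14.8 FPKM. The part of these marker shifts in the results below was not tested, and in bulk libraries more cells with a transcript cannot be told apart from more of it per cell.

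The regulatory letters next to the members' start sites are shown here to set the sites that IRFs and STATs can bind beside the levels that follow. Promoter windows of RefSeq (GRCh38.p14), from 250 bases before to 50 bases after a start, were matched for 5 of the 8 members, namely IRF1, IRF4, IRF5, IRF8 and IRF9, in 9 windows. IRF2, IRF3 and IRF7 had no entry. Both strands were searched for GAAANNGAAA (ISRE core), for AANNGAAA (IRF core, which the ISRE core contains) and for TTCNNNGAA (gamma-activated sequence, bound by STAT dimers). Over all 35116 windows of that table these letters were found in 3.57%, 22.8% and 7.66%. None of the 9 windows held the ISRE core. The 30 bases around the matches of IRF9 (chr14:24161192-24161221 and chr14:24161219-24161248, plus strand), IRF1 (chr5:132490878-132490907, minus strand) and IRF5 (chr7:128940626-128940655, plus strand) read as follows, with the matched letters in capitals.

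IRF9, gamma-activated sequence: accacgtgatTTCTGGGAAaaggccctccc
IRF9, IRF core: ccctggaggagAACTGAAActtagggtggg
IRF1, gamma-activated sequence: acagcctgatTTCCCCGAAatgacggcacg
IRF5, IRF core on the other strand: ggtctagccacTTTCGTTTcccctggggcc

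IRF9 was the only member here with both kinds of letters in 1 window. Counted from the start site, the IRF1 match begins at -124, those of IRF9 begin at -63 and -35, and that of IRF5 begins at -33 of a start inside the gene. Both windows of IRF8 lie at starts downstream of its annotated 5′ end and hold IRF core letters only. These are matches of letters, and no binding was measured.

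In control cells the family was dominated by IRF8. In FPKM, its 2 sh-NC libraries had 187 and 201, which was 75.9% and 77.7% of the summed level of the 8 genes. IRF3 followed with a mean of 28.4 ± 1.33 FPKM, then IRF5 with 10.5 ± 0.403, IRF1 with 8.48 ± 0.148, IRF2 with 6.20 ± 0.258, IRF9 with 4.06 ± 0.0998 and IRF7 with 0.845 ± 0.349 FPKM (SD, n = 2 each). The ranges of neighbours in this order did not overlap. IRF4 is listed at 0 in both libraries. In sh-CEBPG#3 cells IRF9 stood at rank 2, next to IRF8 and above IRF3, and the order of the others was kept, with no overlap between neighbours. The summed level of the family went from 246 and 259 FPKM to 358 and 355 FPKM, and IRF8 was still 73.9% and 74.1% of it.

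**Figure D1:**
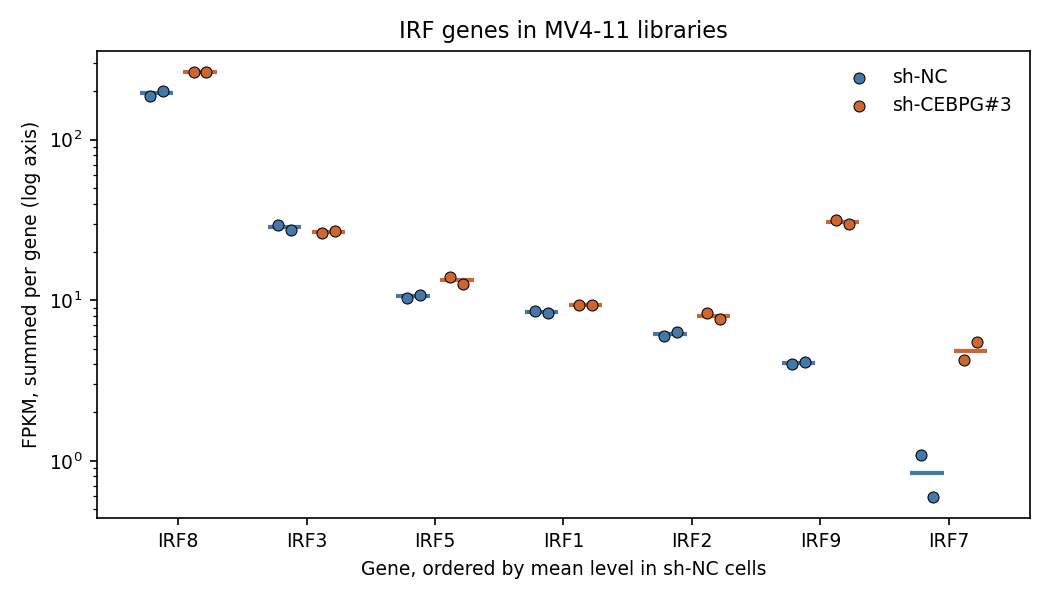
FPKM of 7 IRF genes on a log axis, ordered by their mean in sh-NC cells, with 1 point per library and a line at the mean of the 2 libraries of a group. IRF9 moves from about 4 to about 30 FPKM and IRF7 from under 1.1 to over 4.2 FPKM, while IRF8 stays the highest in both groups; IRF4, listed at 0 in sh-NC cells, is not drawn.

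Upon CEBPG knockdown IRF9 and IRF7 rose several-fold, IRF8, IRF2 and IRF5 rose by less than 1.4-fold, and IRF1 and IRF3 did not pass the test. Log2(FPKM + 1) values were compared with limma over 12142 genes whose mean reached 0.5 FPKM, a scale that understates the change of low genes. Of the 8 members 7 were tested, and each of these also had a mean above 0.5 FPKM in sh-NC cells alone. At an adjusted p under 0.05, 5 of the 7 were higher and 0 were lower. Of all genes tested, 42.2% passed in either direction and 18.5% passed as higher. The study called genes by P under 0.05 and a fold change above 2 in DESeq2. Like cutoffs were applied here to limma, as an unadjusted p under 0.05 with an absolute log2 fold change above 1. IRF9 and IRF7 passed them, as did 414 (3.41%) of all genes tested. The calls of the study itself were not repeated, so this share is not that of the study. The median log2 fold change was 0.32 over the 7 genes and -0.04 over all genes tested. The sh-NC and sh-CEBPG#3 values did not overlap for any of the 7 genes (6 higher, 1 lower), but this held for 71.7% of all genes tested. With 2 libraries against 2, the smallest p of an exact permutation test is 0.333, and the p-values given here depend on the variance that limma models across genes.

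**Figure D2:**
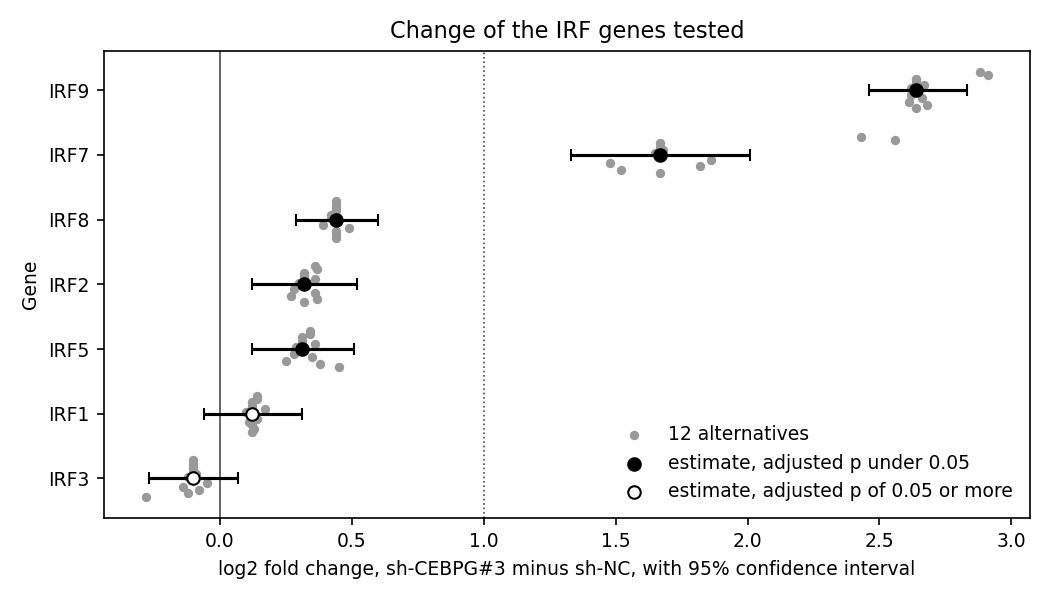
Log2 fold change (sh-CEBPG#3 minus sh-NC, log2(FPKM + 1) scale) of the 7 IRF genes tested, with limma's 95% confidence interval, filled where the adjusted p was under 0.05. Grey points are the 12 alternative settings and the dotted line marks a log2 fold change of 1. Only IRF9 (2.64) and IRF7 (1.67) lie beyond that line, and the intervals of IRF1 and IRF3 cross 0.

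IRF9 (chromosome 14, 24161265 to 24166565, plus strand) is listed by a single transcript, NM_006084. It was at 3.99 and 4.13 FPKM in sh-NC cells and at 31.4 and 29.9 FPKM in sh-CEBPG#3 cells. Every knockdown value was thus over 7 times every control value, and replicates differed little. The mean went from 4.06 ± 0.0998 to 30.6 ± 1.09 FPKM (SD, n = 2 each), a ratio of 7.55. The log2 fold change was 2.64 (95% interval 2.46 to 2.83, Benjamini-Hochberg adjusted p = 1.65e-08 in limma), rank 21 from the highest of the genes tested. In the GENCODE annotation a read-through gene (ENSG00000259529) covers IRF9 on the same strand, and its fragments cannot be told apart from those of IRF9 where exons coincide. An antisense lncRNA also overlaps its 3′ end. The read-through gene begins within RNF31, a subunit of the linear ubiquitin ligase that was looked up after the values were seen. RNF31 had 11.5 and 12.8 FPKM in sh-NC cells and 20.4 and 18.2 FPKM in sh-CEBPG#3 cells (log2 fold change 0.63, adjusted p = 0.000445 in limma). The ratio of IRF9 to RNF31 within a library was 0.347 and 0.324 against 1.54 and 1.64.

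STAT2, the subunit of ISGF3 that IRF9 binds, also rose, with a smaller fold change than IRF9. It had 12.1 and 11.9 FPKM in sh-NC cells and 36.8 and 35.3 FPKM in sh-CEBPG#3 cells (log2 fold change 1.51, adjusted p = 4.61e-07 in limma). Both genes were therefore higher in each knockdown library. The ratio of IRF9 to STAT2 within a library, in FPKM, was 0.329 and 0.347 in sh-NC cells and 0.854 and 0.847 in sh-CEBPG#3 cells. Such a ratio does not depend on how libraries are scaled, and it did not overlap between the groups. This pair and the other pairs given as ratios were chosen after the values were seen.

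**Figure D3:**
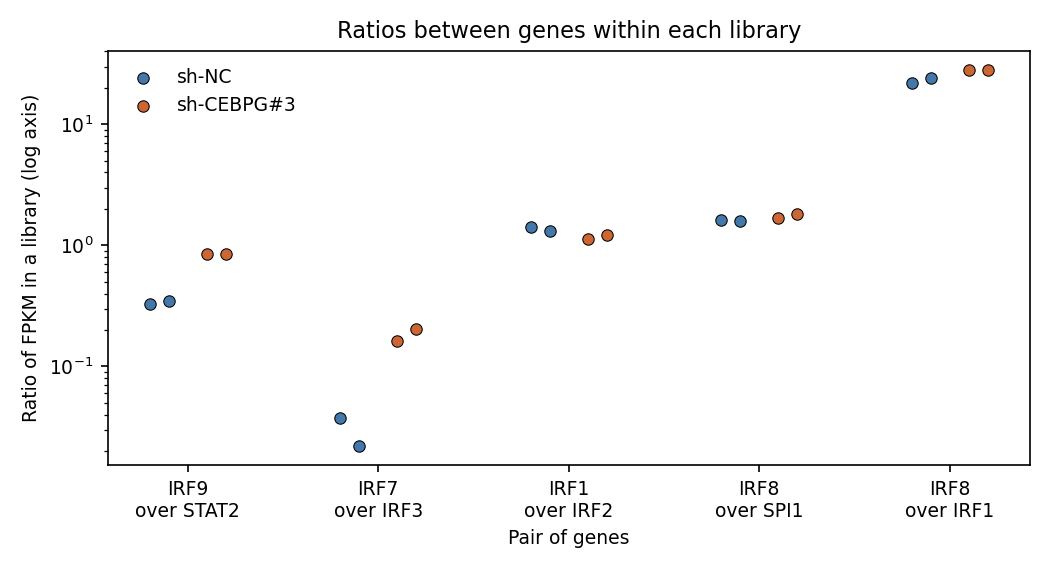
Ratio of FPKM between 2 genes within a library, on a log axis, with 1 point per library. IRF9 relative to STAT2, and IRF7 relative to IRF3, lie higher in both sh-CEBPG#3 libraries, while IRF1 relative to IRF2 lies lower (1.13 and 1.21 against 1.43 and 1.31).

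In the list of interferon receptor chains, JAK kinases and STAT partners, which covers type I, type II and type III signaling, 7 of the 11 genes tested rose and 0 fell, with a median log2 fold change of 0.28. These were 63.6% of the list, where 42.2% of all genes tested passed and 18.5% passed as higher. Besides STAT2, they included IFNGR2, IL10RB, JAK2, IFNAR2 and STAT3. IFNGR2, a chain of the interferon gamma receptor, had a log2 fold change of 0.72. IFNAR1, the other chain of the type I interferon receptor, and the kinases JAK1 and TYK2 had log2 fold changes between -0.07 and 0.05 and did not pass. Without sh-NC replicate 1 fewer passed, and JAK2, IFNAR2 and STAT3 did not (log2 fold changes of 0.34, 0.21 and 0.22). In that fit the share called in either direction was below that of all genes, and the share called higher was above it. With the replicate block IFNAR2 (adjusted p = 0.0522 in limma) and STAT3 (adjusted p = 0.123) did not pass, and with its most abundant transcript alone IFNAR2 had a log2 fold change of -0.07. With no filter on low genes JAK2 (adjusted p = 0.0563 in limma) and IFNAR2 (adjusted p = 0.0744) did not pass. JAK2 also did not pass with its most abundant transcript alone (adjusted p = 0.0756 in limma). JAK2, IFNAR2 and STAT3 each also lost the call with another library left out.

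Of the members activated by nucleic acid sensing, IRF7 rose, IRF5 rose less and IRF3 did not pass. IRF7 (chromosome 11, 612555 to 615950, minus strand), the inducible amplifier of type I interferon, had 1.09 and 0.598 FPKM in sh-NC cells and 4.24 and 5.46 FPKM in sh-CEBPG#3 cells. Its control values were low and unequal, but both lay far below the knockdown values. The mean went from 0.845 ± 0.349 to 4.85 ± 0.862 FPKM (SD, n = 2 each), a ratio of 5.74. The log2 fold change was 1.67 (95% interval 1.33 to 2.01, adjusted p = 2.43e-05 in limma), and with a pseudocount of 0.01, which compresses low values less, it was 2.56. These values come from the transcript NM_004031 alone, because the other row, NM_004029, holds no value in any library.

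IRF3 (chromosome 19, 49659572 to 49665857, minus strand), the constitutive sensor-activated factor, had 29.3 and 27.5 FPKM in sh-NC cells and 26.1 and 26.9 FPKM in sh-CEBPG#3 cells. The log2 fold change was -0.10 (95% interval -0.27 to 0.07, adjusted p = 0.336 in limma). The groups lie close together, although both knockdown values are below both control values. The ratio of IRF7 to IRF3 in a library was 0.0372 and 0.0218 in sh-NC cells and 0.163 and 0.203 in sh-CEBPG#3 cells. The start of IRF3 overlaps BCL2L12 on the opposite strand in the annotation. BCL2L12 lay between 17.6 and 18.0 FPKM over the 4 libraries, with a log2 fold change of 0.02.

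IRF3 is listed by 9 transcripts, of which 5 had a mean of at least 0.5 FPKM. The main one, NM_001571, had 15.6 and 15.6 FPKM in sh-NC cells and 11.6 and 13.7 FPKM in sh-CEBPG#3 cells, which was 53.0% and 57.0% of the gene against 44.6% and 51.0%. Tested among all transcripts, it had a log2 fold change of -0.28 (95% interval -0.57 to 0.00, adjusted p = 0.178 in limma). NM_001197122 came next, with 8.45 and 7.96 FPKM against 8.94 and 7.25 FPKM, and NM_001197123 stayed between 2.15 and 2.66 FPKM. The small transcripts differed between libraries of the same group, as NM_001197125 did with 0.627 and 0 FPKM in sh-NC cells and 2.06 and 0.893 FPKM in sh-CEBPG#3 cells. Thus no transcript of IRF3 passed the test. The groups did not overlap for the main one and NM_001197123, both lower, or for NM_001197125, which was higher. Such separation was common among summed genes, as it held for 71.7% of all genes tested, and its share over transcripts was not computed.

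IRF5 (chromosome 7, 128937032 to 128950038, plus strand), a factor of Toll-like receptor signaling in myeloid cells, had 10.3 and 10.8 FPKM in sh-NC cells and 14.0 and 12.7 FPKM in sh-CEBPG#3 cells. The difference was a ratio of 1.27 and a log2 fold change of 0.31 (95% interval 0.12 to 0.51, adjusted p = 0.0147 in limma). Without sh-CEBPG#3 replicate 1 it was 0.25 and no longer passed (adjusted p = 0.106 in limma). Its 4 transcripts were divided unevenly even between replicates. NM_001098627 had 0.171 and 3.35 FPKM in sh-NC cells, and NM_001098630 had 5.24 and 3.1 FPKM there, while the sum of the gene was stable. NM_001098629 had 4.83 and 4.36 FPKM in sh-NC cells and 5.95 and 7.39 FPKM in sh-CEBPG#3 cells, a log2 fold change of 0.45 that did not pass among all transcripts (adjusted p = 0.14 in limma).

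**Figure D4:**
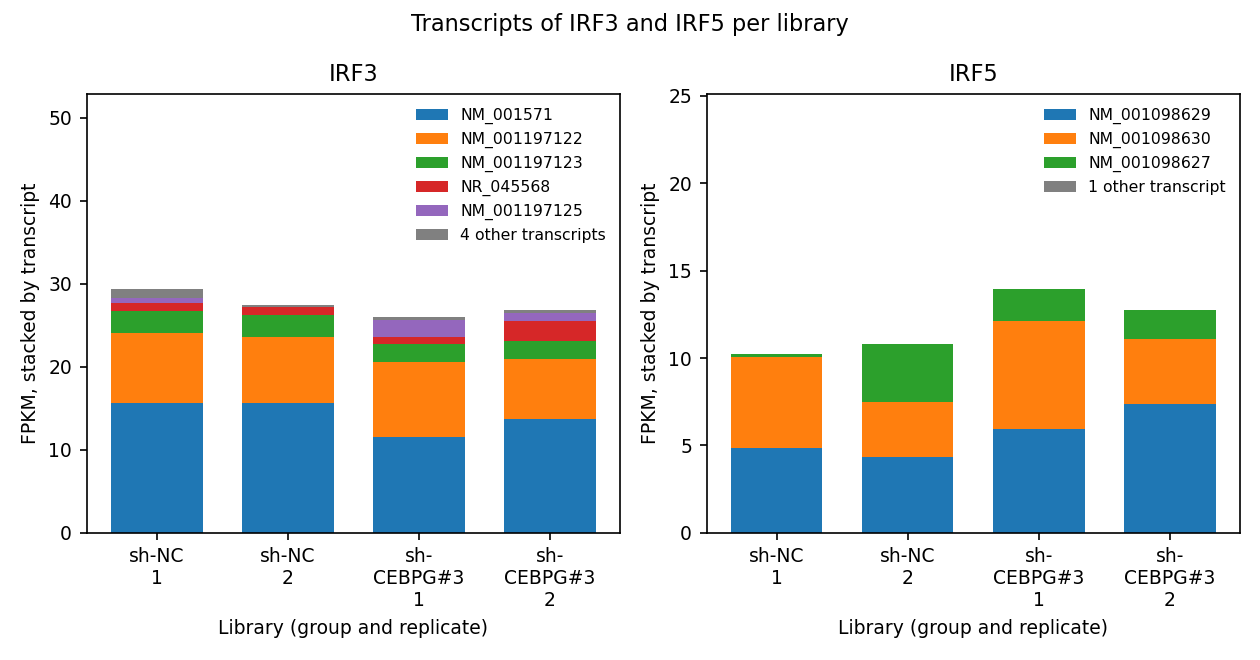
FPKM of the transcripts of IRF3 (left) and IRF5 (right), stacked per library so that the bar height is the sum of the gene. The IRF3 sums lie between 26.1 and 29.3 FPKM, and the split of IRF5 among its transcripts differs between the sh-NC libraries while its sums of 10.3 and 10.8 FPKM are close.

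Of the 13 IRF transcripts tested, 3 passed when every RefSeq transcript was tested by itself, namely those of IRF9, IRF8 and IRF7, all higher. Over all transcripts tested, 8.24% passed. In this fit IRF9 had an adjusted p = 0.0059, IRF7 an adjusted p = 0.0315 and IRF8 an adjusted p = 0.0341 in limma. IRF2, which has a single transcript and thus the same values, had an adjusted p = 0.136 there. With any library left out, 0 of the 13 passed in limma, while 4 or 5 had an unadjusted p under 0.05 and at most 1 of all transcripts passed.

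In the path that leads to IRF3, IRF5 and IRF7, the RNA sensors had the largest increases. Of 19 genes tested in this list, 8 rose and 2 fell, with a median log2 fold change of 0.12 (-0.04 over all genes tested). The 10 genes called were 52.6% of the list, against 42.2% of all genes tested. The share called higher was 42.1%, against 18.5% of all genes tested. IFIH1 (MDA5), a sensor of long double-stranded RNA, had 1.47 and 1.92 FPKM in sh-NC cells and 9.17 and 8.50 FPKM in sh-CEBPG#3 cells, with a log2 fold change of 1.87 (limma adjusted p = 1.42e-06). DDX58 (RIG-I), a sensor of RNA with a triphosphate end, had 3.12 and 2.95 FPKM against 9.86 and 9.37 FPKM (1.40, adjusted p = 2.98e-06 in limma). Both genes thus stood above their controls in every knockdown library.

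MYD88, TICAM1 and IKBKE, adaptors and a kinase upstream of these IRFs, were also among the 8 that rose. MAVS, the adaptor shared by both RNA sensors, went the other way, from 9.12 and 9.45 FPKM to 7.83 and 7.57 FPKM (-0.24, adjusted p = 0.0445 in limma). CXorf21 (TASL), the adaptor of IRF5 at the lysosome, had 26.2 and 28.2 FPKM in sh-NC cells and 23.7 and 21.3 FPKM in sh-CEBPG#3 cells (-0.27, adjusted p = 0.0286 in limma). TBK1, the kinase of IRF3, had a log2 fold change of 0.05 and did not pass. Neither decrease was stable. MAVS did not pass with any library left out (adjusted p from 0.0801 to 0.163 in limma) or with the replicate block (adjusted p = 0.0987). CXorf21 did not pass with the block (adjusted p = 0.0656 in limma), without sh-NC replicate 2 (adjusted p = 0.0759) or without sh-CEBPG#3 replicate 2 (adjusted p = 0.225). Neither passed with no filter on low genes. With the most abundant transcript of each gene in place of the sum, 5 of the 19 passed, all higher, which was 26.3%. In that fit 23.9% of all genes passed in either direction and 11.1% passed as higher. IKBKE did not pass in it (0.39, adjusted p = 0.347 in limma).

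The interferon transcripts themselves were barely seen. Of 21 interferon ligand genes in the list, 20 were not analysed here for want of a row, and IFNB1, the first target of IRF3, was at 0.0818 and 0 FPKM in sh-NC cells and 0.073 and 0.188 FPKM in sh-CEBPG#3 cells. These values overlap, lie below the level at which genes were tested and come from a table without depth, so a difference was not detectable.

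Among the factors with shared sites, IRF2 rose and IRF1 did not pass. IRF1 (chromosome 5, 132481609 to 132490773, minus strand), an activator that interferon gamma induces, had 8.59 and 8.38 FPKM in sh-NC cells and 9.36 and 9.29 FPKM in sh-CEBPG#3 cells. The knockdown values were both higher, but the log2 fold change was only 0.12 (95% interval -0.06 to 0.31, adjusted p = 0.265 in limma). The annotation places the antisense gene IRF1-AS1 across part of IRF1, which was not analysed here.

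IRF2 (chromosome 4, 184387729 to 184474550, minus strand), the antagonist of IRF1 at many sites, had 6.02 and 6.38 FPKM in sh-NC cells and 8.30 and 7.69 FPKM in sh-CEBPG#3 cells. The log2 fold change was 0.32 (95% interval 0.12 to 0.52, adjusted p = 0.0171 in limma). This call was lost without sh-NC replicate 1 (0.28, adjusted p = 0.0647 in limma), without sh-CEBPG#3 replicate 1 (0.27, adjusted p = 0.0924) and with no filter on low genes (0.32, adjusted p = 0.0509). The ratio of IRF1 to IRF2 within a library was 1.43 and 1.31 in sh-NC cells and 1.13 and 1.21 in sh-CEBPG#3 cells. A small nucleolar RNA inside IRF2, SNORD79, had a log2 fold change of -0.03.

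IRF8 (chromosome 16, 85899162 to 85922609, plus strand), the factor of the monocyte and dendritic lineages, rose from 187 and 201 FPKM to 264 and 263 FPKM. Being the most abundant member, it gained the most FPKM, although its ratio was 1.36. The mean went from 194 ± 9.86 to 264 ± 0.751 FPKM (SD, n = 2 each), with a log2 fold change of 0.44 (95% interval 0.29 to 0.60, adjusted p = 0.000727 in limma). The primary transcript of IRF8 holds the hairpin MIR6774 in an intron, listed at 3.96 and 7.17 FPKM in sh-NC cells and 12.1 and 11.4 FPKM in sh-CEBPG#3 cells (1.00, adjusted p = 0.00172 in limma). The sh-NC values of this short feature were unequal, and both lay below the knockdown values.

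SPI1 (PU.1), the partner of IRF8 and a pioneer factor of myeloid cells, also rose. SPI1 had 114 and 125 FPKM in sh-NC cells and 157 and 144 FPKM in sh-CEBPG#3 cells, a log2 fold change of 0.33 with an adjusted p = 0.00732 in limma. Without sh-CEBPG#3 replicate 1 SPI1 did not pass (0.26). It also did not pass with its most abundant transcript alone (0.23, adjusted p = 0.107 in limma). The ratio of IRF8 to SPI1 was 1.63 and 1.60 in sh-NC cells and 1.68 and 1.83 in sh-CEBPG#3 cells, a mean ratio of 1.08 between the groups. Among the myeloid markers, CSF1R was at 4.41 and 4.52 FPKM in sh-NC cells and at 8.42 and 8.6 FPKM in sh-CEBPG#3 cells. ITGAM was at 7.74 and 7.85 FPKM against 8.7 and 8.02 FPKM, and FLT3 at 67.6 and 75 FPKM against 66 and 62.8 FPKM. These markers thus did not move by a common amount. IRF4 (chromosome 6, 391752 to 411443, plus strand), the lymphoid relative of IRF8, is listed by a non-coding transcript only, NR_046000. It is listed at 0 in both sh-NC libraries and at 0.0403 and 0.047 FPKM in the sh-CEBPG#3 libraries, and it was not tested.

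Of 16 DNA-binding and co-regulator partners tested, 5 rose and 2 fell, with a median log2 fold change of -0.09. The share called, 43.8%, was near the 42.2% of all genes tested, as was the median to theirs (-0.04). JUN, an AP-1 subunit, had 1.58 and 1.81 FPKM in sh-NC cells and 7.69 and 7.44 FPKM in sh-CEBPG#3 cells (1.67, adjusted p = 1.61e-06 in limma). BATF2, an interferon-inducible relative of AP-1 that pairs with IRF1, had 0 and 0.0227 FPKM against 1.77 and 1.61 FPKM (1.41, adjusted p = 3.43e-05 in limma) and entered the test only through the knockdown libraries. KAT2B, an acetyltransferase, went from 1.34 and 1.5 FPKM to 0.672 and 0.7 FPKM, and fell by 0.52 on the log2 scale (adjusted p = 0.00867 in limma). IKZF1 (Ikaros) went from 37.3 and 38.4 FPKM to 30.8 and 31.8 FPKM (-0.27, adjusted p = 0.0143 in limma). This call was lost with the replicate block (adjusted p = 0.0635 in limma) and with its most abundant transcript alone (-0.15, adjusted p = 0.262). It was also lost without sh-CEBPG#3 replicate 1 (-0.25) and without sh-CEBPG#3 replicate 2 (-0.29). Without sh-CEBPG#3 replicate 1 fewer of the 16 passed. In that fit the share called in either direction was below that of all genes, and the share called higher was above it.

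Among genes that restrain IRF signaling, 8 of 17 rose and 1 fell, with a median log2 fold change of 0.07. The share called was 52.9% (42.2% of all genes tested) and the share higher was 47.1% (18.5% of all genes tested). USP18, which blocks the type I interferon receptor and removes ISG15 from proteins, had 2.57 and 3.02 FPKM in sh-NC cells and 16.6 and 15.9 FPKM in sh-CEBPG#3 cells (2.19, adjusted p = 1.54e-07 in limma). TNFAIP3 (A20), a ubiquitin-editing enzyme, had 5.15 and 6.38 FPKM against 22.1 and 22 FPKM (1.77, adjusted p = 9.96e-07 in limma). SOCS1, an inhibitor of JAK kinases, was the gene that fell, from 16.5 and 16.8 FPKM to 12.1 and 12.2 FPKM (-0.42, adjusted p = 0.0019 in limma). Without sh-CEBPG#3 replicate 1 fewer of the 17 passed. In that fit the share called in either direction was below that of all genes, and the share called higher was above it.

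Genes that ISGF3 and IRF3 bind through ISREs were chosen with their increase in these data already known, and are given here as the level of output beside the factors. Of 27 tested, 26 (96.3%) rose, with a median log2 fold change of 2.82. Over all genes tested 18.5% passed as higher, and the median was -0.04. Of these 27 genes, 10 had a mean under 0.5 FPKM in sh-NC cells and so passed the filter through the knockdown libraries. The largest log2 fold changes were those of IFI6, with 1.99 and 2.07 FPKM against 271 and 264 FPKM, and CXCL10, with 0.267 and 0.403 FPKM against 64.9 and 57.5 FPKM. CCL5, a chemokine, was the gene that did not pass, with 25.1 and 28.7 FPKM in sh-NC cells and 17.2 and 28.7 FPKM in sh-CEBPG#3 cells.

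Of 22 genes tested that IRF1 and IRF8 are known to activate, 17 (77.3%) rose and 0 fell, with a median log2 fold change of 0.64. Of all genes tested, 42.2% passed in either direction and 18.5% passed as higher, with a median of -0.04. This list, too, was chosen with earlier results of these data known. Only 1 of the 22 had a mean under 0.5 FPKM in sh-NC cells. GBP5, a guanylate-binding protein, had 1.75 and 1.79 FPKM in sh-NC cells and 8.22 and 8.80 FPKM in sh-CEBPG#3 cells (1.78, adjusted p = 8.38e-07 in limma). TNFSF10 (TRAIL), a ligand of death receptors, had 2.59 and 2.21 FPKM against 11.0 and 9.12 FPKM (1.70, adjusted p = 2.94e-06 in limma). The genes of this list that did not pass were TAP2, PSMB8, PSMB10, CIITA and KLF4, with log2 fold changes from -0.25 to 0.38. CIITA, the activator of MHC class II genes, lay between 0.791 and 1.1 FPKM over the 4 libraries.

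**Figure D5:**
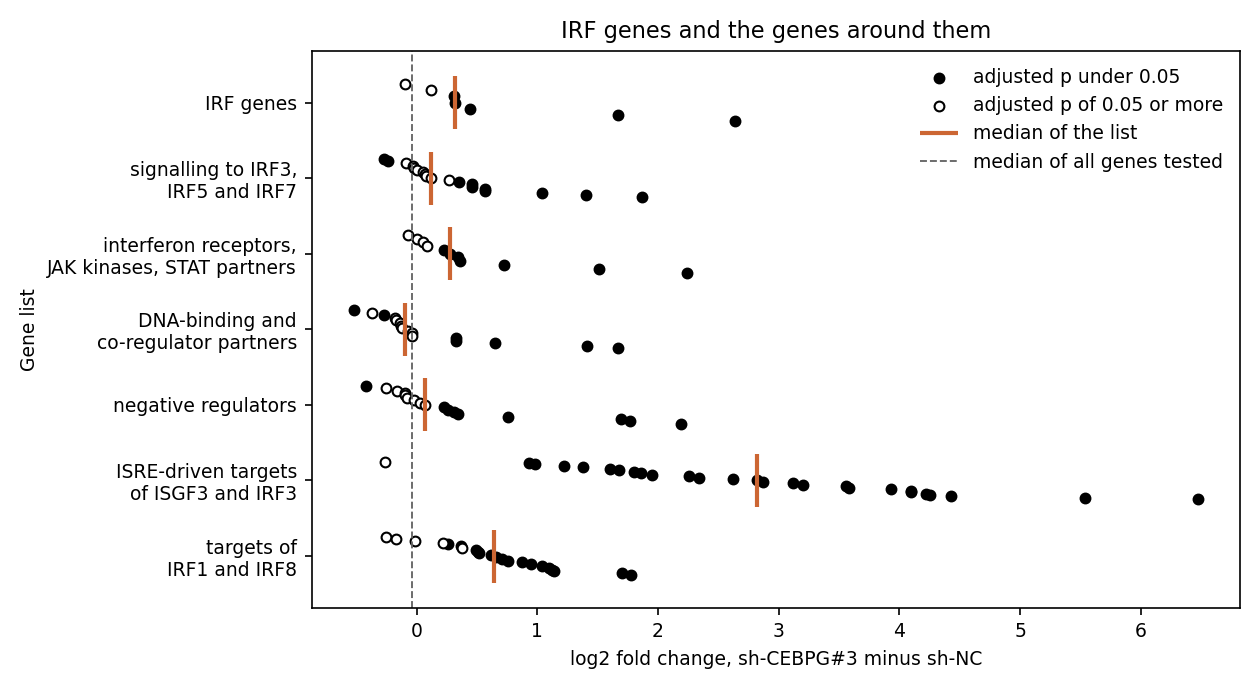
Log2 fold change (sh-CEBPG#3 minus sh-NC) of the IRF genes and of the genes around them, with 1 point per gene tested, filled where limma's adjusted p was under 0.05. Orange lines are list medians and the dashed line is the median of all genes tested (-0.04). The medians are 0.32 for the IRF genes, 2.82 for the ISRE-driven targets and 0.64 for the targets of IRF1 and IRF8. The ISRE-driven targets were chosen with their increase already known, and 10 of the 27 tested passed the filter through the knockdown libraries.

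The genes with the pattern most like a member were found by the root mean square difference of log2(FPKM + 1) over the 4 libraries, each gene centred on its sh-NC mean. BST2 (tetherin), with a difference of 0.046, SLFN5 (0.048) and C3 (0.052) were nearest to IRF9. CD40 (0.146) and SLC2A6 (0.162) were nearest to IRF7, and ZNF469 (0.005), PLEKHA3 (0.009) and ARHGAP17 (0.010) were nearest to IRF8. CD40 (0.151 and 0 FPKM in sh-NC cells) and SLC2A6 (0.48 and 0.397 FPKM there) passed the filter only through the knockdown libraries. The distances around IRF7 are wider, and its own sh-NC values are the most unequal among the 7 genes tested. With 4 libraries in 2 groups, likeness says little beyond a change of the same size.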

How the data were processed

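RNA-seq libraries of MV4-11 cells (2 sh-NC, 2 sh-CEBPG#3) were used. After read filtering and mapping by HISAT (HISAT2 2.0.5 and hg38 in the submitters' processing notes), the authors deposited FPKM values, 1 per RefSeq transcript and library. The program that computed FPKM is not given in the sources used here. No whole-read steps were seen in the low values, so depth is unknown and no count test was run. Of 28780 rows, 28581 have values, which were summed per gene symbol. The 12142 genes whose mean reached 0.5 FPKM were compared as log2(FPKM + 1) with limma 3.58.1 in R 4.3.3 (lmFit, eBayes with a trend), with Benjamini-Hochberg adjustment over all genes. The same was done per transcript. The fit was also run on simulated data with independent noise and large changes in genes that were not low. That run does not bear on small changes, on low genes or on libraries that may be technical replicates. Promoter windows and gene positions are from RefSeq (GRCh38.p14) and overlaps from GENCODE, read with Python 3.11.15.

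Members, lists and tests were chosen with earlier results of these data known. Named are all members, their transcripts and overlapping genes, the target CEBPG, the 2 largest increases and 2 largest decreases called per list, and the 3 genes most like each of the 3 members with the largest change. Some results for single genes that this rule names are left out of the text. Other list genes and markers, and the ratios, were added after the values were seen. As alternatives, low genes were kept or cut at a mean of 1 FPKM, the pseudocount was set to 0.1 or 0.01, libraries were scaled to equal totals or by quantiles, the replicate number was blocked, libraries were left out in turn, and each gene was represented by its most abundant transcript.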

Additional observations from a re-analysis of the deposited data

How the results depend on the processing

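IRF9, IRF7 and IRF8 kept their direction and passed an adjusted p of 0.05 in limma under all 12 alternatives, with log2 fold changes from 2.61 to 2.91, from 1.48 to 2.56 and from 0.39 to 0.49. IRF1 and IRF3 passed in none of them, and no member reversed. The count of members called, 5, was 3 with the most abundant transcript per gene, where IRF2 (0.32, adjusted p = 0.0717 in limma) and IRF5 (0.45, adjusted p = 0.0684) did not pass, and 3 to 5 with each library left out. The count past the cutoffs modelled on those of the study, applied to limma, stayed at 2 throughout. The count of IRF transcripts called, 3, was 1 with no filter and 1 with the replicate block, and 0 to 0 with each library left out. The count in the list of signalling to IRF3, IRF5 and IRF7, 10, was 5 with the most abundant transcript. With each library left out, the counts ran from 4 to 6 for the receptors, JAK kinases and STAT partners (7), from 4 to 8 for the DNA-binding and co-regulator partners (7) and from 5 to 8 for the negative regulators (9). What causes these changes was not tested. Such a fit assumes that the lone library of a group varies like the other group.

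The replicate numbers come from the titles, and across genes the deviations of same-numbered libraries correlated at 0.061, so the numbers are not shown to pair them. With the replicate number as a block 5 members were called, and apart from the count of transcripts no list's count in both directions together moved by over 1.5 times. Of the decreases, however, the signalling list kept 0 of 2 and the DNA-binding and co-regulator partners kept 1 of 2 with the block. Without read counts, low members such as IRF7 and IRF4 cannot be weighted by depth.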

Other observations

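IRF2BP2, a co-repressor named for its binding to IRF2, had a summed level of 123 and 130 FPKM in sh-NC cells and 120 and 110 FPKM in sh-CEBPG#3 cells, a log2 change of -0.14 (95% interval -0.30 to 0.03) that did not pass (adjusted p = 0.167 in limma). Its 2 transcripts moved apart. NM_001077397 went from 77.2 and 84.6 FPKM to 49.4 and 45.7 FPKM, with a log2 change of -0.75 and an adjusted p = 0.0222 in limma over all transcripts. NM_182972 went from 45.4 and 45.3 FPKM to 70.6 and 63.9 FPKM (0.56, adjusted p = 0.031 in limma). Over all transcripts tested, 8.24% passed in this fit. With the replicate block 112 transcripts were called in limma, against 1534 without it, and these 2 calls were not followed through the alternative settings. The groups did not overlap for either transcript. Among summed genes this held for 71.7% of all genes tested, and the share over transcripts was not computed. This gene was singled out after its values were seen.

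Several genes around the IRF family had a mean under 0.5 FPKM over the 4 libraries, were therefore not tested, and were higher in both sh-CEBPG#3 libraries. They too were picked after their values were seen. TLR8, an endosomal RNA receptor that signals to IRF5 and IRF7, had 0.0329 and 0.0852 FPKM in sh-NC cells and 0.793 and 0.823 FPKM in sh-CEBPG#3 cells. CXCL9, a chemokine that IRF1 activates, is listed at 0 in both sh-NC libraries and at 0.791 and 0.806 FPKM in the sh-CEBPG#3 libraries. GBP1 is listed at 0 and 0 FPKM against 0.307 and 0.332 FPKM. MX1, an ISRE-driven antiviral gene, did not share this, with 0.122 and 0.235 FPKM in sh-NC cells and 0.23 and 0.2 FPKM in sh-CEBPG#3 cells. TICAM2, of the list of signalling to IRF3, IRF5 and IRF7, was lower, with 0.544 and 0.745 FPKM against 0.325 and 0.289 FPKM. The values of TLR3, TLR4, TLR7 and CD274, also untested, overlapped between the groups.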
